A study of Mus musculus with 7 samples.

Results

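Interferon-stimulated genes were described in MIN6 cells, a mouse insulinoma line that serves as a model of pancreatic beta cells, after culture with a plant polysaccharide or with vehicle. The set held 36 genes, and a probe was taken as a member's where its listed transcript belonged to the gene. Of the 36 genes, 34 matched 52 of the 56605 probes on the array. Mx1 and Mx2 matched no probe and have no values here. The vehicle group (3 arrays) received phosphate-buffered saline (PBS), and the other group (4 arrays) received Maidong polysaccharide extract (MPE), each for 3 days. Both groups were MIN6 cells of passage 20 to 30 in medium with 15% serum and 50 μmol/L mercaptoethanol. Several MPE concentrations, the highest 50 μg/mL, appear in the labels, and the dose given to the cells of the arrays is not stated there. Whether the replicates were separate cultures is not stated either, so a p-value measures only how these samples spread, and that spread may be technical.

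Type I interferons bind the receptor pair Ifnar1 and Ifnar2, whose kinases Jak1 and Tyk2 phosphorylate Stat2 and other factors. Stat2 joins Irf9 in a complex, ISGF3, that binds the interferon-stimulated response element (ISRE) in the promoters of antiviral genes, while interferon gamma acts through gamma-activated sites (GAS). Many cells transcribe part of this programme at a low, tonic level without added interferon, and beta cells are known to raise it strongly when exposed to interferon, as in islets affected by type 1 diabetes.

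The 7 arrays shared 1 slide. Vehicle samples lay in its upper row of arrays, in columns 1, 2 and 4, and MPE samples in columns 1 to 4 of its lower row. The effects of row and of treatment cannot be told apart. From 49.3% to 53.2% of the probes were well above background on each array. The arrays correlated across genes at 0.991 to 0.997, and no pair was identical. Beta-cell identity was checked on 8 marker genes, of which 7 were above background on all arrays and Slc2a2 on none. Of 11 markers of macrophages and other immune cells, 5 were above background on all arrays and 4 (Adgre1, Itgax, Lyz2 and Ms4a1) on none. Of the 5, Cd68 (0.10), Cd3e (0.04) and Cd14 (0.31) were higher in MPE and Itgam (-0.35) and Csf1r (-0.06) lower on the log2 scale, and 0 passed the test (limma adjusted p of 0.986 for Itgam and 1 for the others). The summed level of the 11 markers, in multiples of the array's 75th percentile, was 19.1 to 24.2 on vehicle arrays and 17.2 to 18.8 on MPE arrays, and most of it was the brighter probe of Itgam. That probe was lower on every MPE array than on any vehicle array, while the second Itgam probe differed by -0.12 with overlapping groups. The part of these markers in the members' values was not tested.

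The promoters of the members were examined for the element that ISGF3 binds. A promoter was the 300 bases from 250 before to 50 after the RefSeq start of the gene (build GRCm38.p6), and 28 members had one. Counting GAAA, any 2 bases and GAAA again, on either strand, as an ISRE match, 16 of the 28 member promoters (57.1%) held one, against 3.99% of 27025 promoters of all genes. The match was found in 10 of 19 promoters of members that were measured well above background and in 6 of 9 promoters of the other members. TTCNNNGAA, the GAS pattern on either strand, stood in 10 of 28 member promoters (35.7%) and in 9.55% of all promoters, and the 2 patterns may overlap. A match describes the letters only and is not evidence that a factor binds there.

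The stretches around the matches are shown for 9 members that were well above background on at least 3 arrays and for 4 that were not, since both kinds carry the element. Each is written 5′ to 3′ on the strand of its gene, with the ISRE match in capitals. A match that reads TTTC, any 2 bases and TTTC is the same pattern on the other strand, and overlapping matches appear as a longer capital run. A stretch ends no more than 20 bases past its first run, so the second match of Ifit3 lies beyond the stretch shown.
Isg15 (chr4:156200855-156200916, minus strand): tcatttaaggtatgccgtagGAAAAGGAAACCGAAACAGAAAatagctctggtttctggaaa
Stat2 (chr10:128270256-128270305, plus strand): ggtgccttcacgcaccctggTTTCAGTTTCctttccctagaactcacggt
Irgm1 (chr11:48871421-48871470, minus strand): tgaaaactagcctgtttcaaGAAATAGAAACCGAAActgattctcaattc
Igtp (chr11:58199502-58199551, plus strand): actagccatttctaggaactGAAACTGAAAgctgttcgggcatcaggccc
Rsad2 (chr12:26456543-26456592, minus strand): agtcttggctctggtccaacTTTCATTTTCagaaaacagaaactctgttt
Socs1 (chr16:10785584-10785639, minus strand): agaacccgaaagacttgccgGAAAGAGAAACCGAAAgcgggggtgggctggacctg
Ifit3 (chr19:34583353-34583402, plus strand): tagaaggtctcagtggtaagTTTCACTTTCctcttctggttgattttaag
Oas1a (chr5:120907526-120907565, minus strand): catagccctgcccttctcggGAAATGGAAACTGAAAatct
Bst2 (chr8:71537567-71537622, minus strand): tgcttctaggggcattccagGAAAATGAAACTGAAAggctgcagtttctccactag
Ifit1 (chr19:34640765-34640814, plus strand): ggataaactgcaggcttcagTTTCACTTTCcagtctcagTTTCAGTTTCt
Gbp2 (chr3:142620584-142620633, plus strand): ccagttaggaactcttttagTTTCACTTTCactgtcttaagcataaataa
Gbp3 (chr3:142559979-142560034, plus strand): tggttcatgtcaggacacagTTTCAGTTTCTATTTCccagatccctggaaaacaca
Gbp7 (chr3:142530263-142530312, plus strand): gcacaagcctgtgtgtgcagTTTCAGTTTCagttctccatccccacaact
Isg15 carried 3 overlapping matches beginning 78 bases before its start, and Socs1 and Bst2 carried 2 each, beginning 83 and 130 bases before theirs. Ifit1, which was above background on a single array, carried 2 matches within the stretch shown, whereas Igtp, above background on every array, carried 1. The 3 guanylate-binding protein genes each carried a match 45 to 59 bases before the start, and none of them was above background.

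Before MPE was considered, the question was which members gave signal above background in MIN6 cells. A member was taken as measured when 1 of its probes was well above background on at least 3 arrays. By this rule 23 of the 34 matched members (67.6%) were measured, against 59.7% of all 22911 genes with a symbol. On all 7 arrays 22 members were above background, and the share of all such genes was 56.4%. No probe was above background on any array for 9 of the 34 (26.5%, against 32.2% of all genes), namely Irf8, Ifih1, Gbp2, Gbp3, Gbp7, Iigp1, Xaf1, Ifi44 and Ifitm3. All but Xaf1 had a single probe. A probe that does not work cannot be told from a gene that is not transcribed. The number of members above background was 23 on each vehicle array and 22 or 23 on each MPE array. Among the members with several probes, 15 in all, not every probe gave signal: of the 23 measured members, 17 had all probes above background and 6 had only some.

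**Figure D1:**
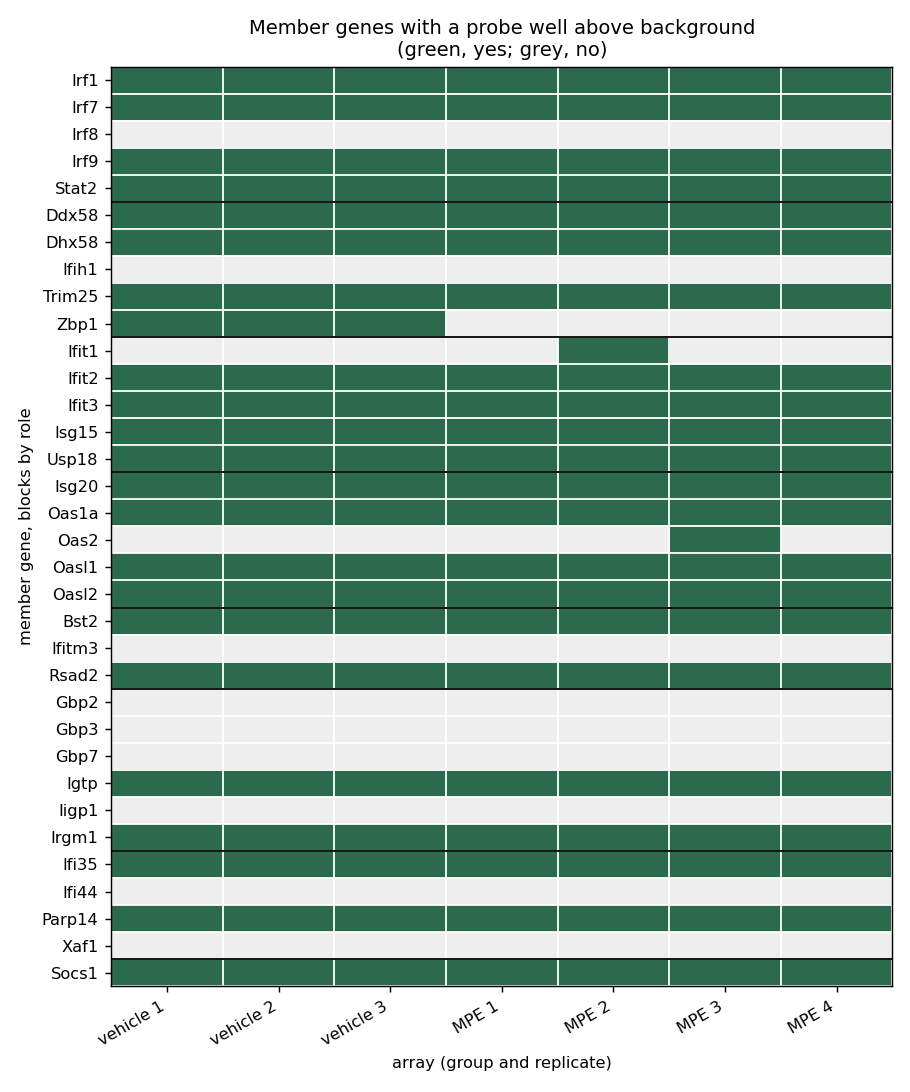
Detection of the 34 matched members (rows, in blocks by role) on each of the 7 arrays (columns). Green marks an array on which a probe of the gene was well above background. Zbp1 is green on the 3 vehicle arrays only, Ifit1 on MPE 2 only and Oas2 on MPE 3 only.

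The measured members are given by role, with no test between roles. Of the factors that carry the signal, 4 of 5 were measured. Among the guanylate-binding and immunity-related GTPases, which attack the vacuoles of intracellular pathogens, 2 of 6 were measured, Igtp and Irgm1, and 4 were above background nowhere. The sensors had 4 of 5 measured, the IFIT and ISG15 members 4 of 5, and the OAS family with Isg20 4 of 5. Of the membrane and lipid effectors 2 of the 3 matched members were measured, of 4 other induced genes 2, and the feedback inhibitor Socs1 was measured.

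Levels below are log2 values relative to the 75th percentile of each array's probes, so 0 is the level of that percentile. Probes differ in how well they bind, so levels are compared between arrays and not between genes. Each difference is MPE minus vehicle, fitted with limma across 22098 genes and adjusted over all of them by the Benjamini-Hochberg method at 0.05.

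MPE against vehicle asks whether 3 days with the extract moved the interferon programme. None of the 23 measured members passed the test, and the limma adjusted p was 1 for each of them. The background was a call rate of 0.00453% higher (1 gene) and 0.0% lower among all genes, so the count of 0 members is close to the background and is not a result about the members. Of the 23 members 13 were higher and 10 lower, and 42.3% of all genes were higher. Their median log2 difference was 0.01, and that of all genes was -0.02. A single member, Zbp1, had an unadjusted limma p under 0.05 and was lower, where 0.756% of all genes were higher and 3.35% lower by that measure. Zbp1 passed the filter only through the vehicle arrays, where it was high, so its direction is not independent of the filter. For 0 members did the MPE arrays lie all above or all below the vehicle arrays, against 1.18% (above) and 3.38% (below) of all genes. The 95% interval of the ratio of MPE to vehicle lay within 1.5-fold of equality for 19 of 23 members and 80.7% of all genes, and within 2-fold for 20 members.

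**Figure D2:**
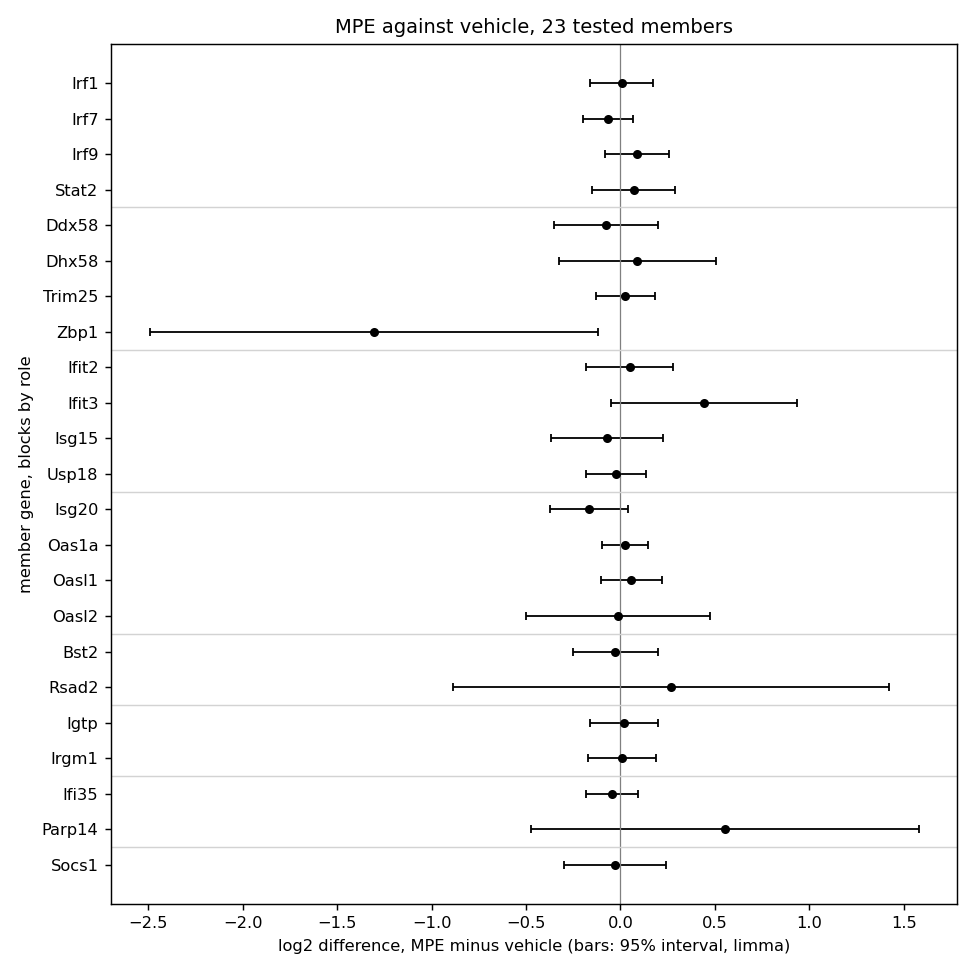
Log2 difference of MPE minus vehicle (points) with its 95% interval from limma (bars) for the 23 measured members, in blocks by role. The interval of Zbp1, which passed the filter only through vehicle arrays, is the only 1 that leaves out 0. Zbp1, Rsad2 and Parp14 have the widest intervals.

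The split of higher and lower depends on where 0 is set. With each array scaled to its median, which lowers all differences alike, 5 members were higher and 18 lower, and the members' median became -0.06 and that of all genes -0.09. Quantile normalization and a 75th percentile taken over detected probes each gave 13 higher and 10 lower, and the authors' value table gave 12 and 11. The members' median stood 0.024 to 0.025 above that of all genes under these scalings. Within slide columns that held 1 vehicle and 1 MPE array, the members' median was 0.003 in column 1, 0.067 in column 2 and -0.060 in column 4. MPE 3 was alone in column 3 and has no part in values given within slide columns.

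Of the transcription factors, Irf9, the DNA-binding part of ISGF3, stood at 0.30, 0.22 and 0.44 on the vehicle arrays and at 0.35, 0.35, 0.49 and 0.43 on the MPE arrays. The groups overlapped, with vehicle 2 the lowest array and MPE 3 the highest. Its difference was 0.09 (SE 0.071), a ratio of 1.06 with a 95% interval of 0.943 to 1.19. A second probe of Irf9, above background on all 7 arrays, gave the opposite direction, a log2 difference of -0.10. Stat2, the partner of Irf9, stood at 1.04, 0.90 and 1.12 in vehicle and at 1.00, 0.96, 1.26 and 1.12 in MPE. Vehicle 2 was again lowest and MPE 3 highest, and the ratio was 1.05 (0.901 to 1.22). Irf7, which amplifies type I interferon production and is itself interferon-induced, had vehicle values of 0.73, 0.77 and 0.72 and MPE values of 0.74, 0.72, 0.62 and 0.61. MPE 3 and MPE 4 lay below every vehicle array, while MPE 1 and MPE 2 lay within the vehicle range, and the ratio was 0.956 (0.872 to 1.05). Irf1, a factor induced mainly by interferon gamma, gave 2.56, 2.50 and 2.68 in vehicle and 2.59, 2.49, 2.67 and 2.58 in MPE, nearly the same range. Its ratio was 1.00 (0.895 to 1.13). Irf8, a factor of myeloid and lymphoid cells, read -6.83, -6.96 and -6.86 in vehicle and -6.37, -6.39, -6.36 and -6.40 in MPE, all at background.

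Among the sensors of foreign nucleic acid, Ddx58 (RIG-I) gave -1.32, -1.36 and -1.19 in vehicle and -1.16, -1.23, -1.50 and -1.57 in MPE. MPE 3 and MPE 4 were below all vehicle arrays, MPE 1 was above all of them, and the ratio was 0.948 (0.782 to 1.15). A second measured probe of Ddx58 gave a log2 difference of -0.23. Dhx58 (LGP2), a regulator of RIG-I signalling, lay near background, at -3.52, -3.61 and -3.07 in vehicle and at -3.19, -3.04, -3.47 and -3.54 in MPE. Both groups spread over the same range, and the ratio was 1.06 (0.799 to 1.42). Trim25, the ubiquitin ligase that activates RIG-I, differed by 0.03. Ifih1 (MDA5), the sensor of long double-stranded RNA, read -4.91, -6.78 and -4.90 in vehicle and -6.23, -5.55, -5.29 and -5.50 in MPE. None of these readings was well above background.

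Zbp1, a sensor of left-handed nucleic acid that can trigger necroptosis, was the member with the smallest p. Its vehicle arrays read -2.04, -3.44 and -4.03, and its MPE arrays read -4.01, -4.04, -4.85 and -5.00. Vehicle 1 stood above all others and MPE 3 and MPE 4 below, but vehicle 3 lay between MPE 1 and MPE 2, so the groups overlapped. The probe was well above background on all 3 vehicle arrays and on 0 MPE arrays, so the gene was tested only through the group where it was high. The lowest signal of any probe well above background was -4.73 to -4.61 on the vehicle arrays and -4.16 to -4.11 on the MPE arrays. These lowest signals are not a threshold. MPE 1 at -4.01 and MPE 2 at -4.04 lay above theirs and were not counted as detected, while vehicle 3 at -4.03 was. The fitted log2 difference was -1.31 (SE 0.500), a limma unadjusted p of 0.0354 that ranked 669 among 22098 genes and an adjusted p of 1. The ratio of MPE to vehicle was 0.405 with a 95% interval of 0.178 to 0.921. Each MPE array was also counted at its lowest signal well above background, or at the probe's own level if higher. The vehicle mean was then 1.88-fold the MPE mean. This only describes the values that let the gene pass the filter, and it is not a lower limit. Without vehicle 1 the log2 difference was -0.74. It was -0.38 with another background correction (normexp), whose added offset shrinks the differences of dim probes. Within the slide columns it was -1.976, -0.598 and -0.970. A second Zbp1 probe, for another listed transcript, was not above background on any array.

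In the ISG15 system, Isg15, a ubiquitin-like protein attached to other proteins during the interferon response, gave -0.21, -0.41 and -0.66 in vehicle and -0.49, -0.38, -0.70 and -0.43 in MPE. Vehicle 1 was highest and MPE 3 lowest, with the other arrays between, and the ratio was 0.951 (0.774 to 1.17). Usp18, which removes Isg15 and dampens Ifnar2 signalling, gave 1.35, 1.25 and 1.18 in vehicle and 1.34, 1.23, 1.21 and 1.16 in MPE. The groups covered almost the same range, and the ratio was 0.983 (0.880 to 1.10). The IFIT proteins bind viral RNA and block its translation. Ifit1 read -5.08, -4.83 and -4.88 in vehicle and -5.79, -3.83, -6.40 and -5.75 in MPE. It was well above background on MPE 2 alone, and no fold is given. Ifit2 differed by 0.05. Ifit3, described for its size after its values were seen, gave -3.52, -3.21 and -3.56 in vehicle and -3.25, -2.96, -3.26 and -2.47 in MPE. MPE 2 and MPE 4 lay above all vehicle arrays and the other 2 MPE arrays did not. Its log2 difference was 0.44 (SE 0.207, limma unadjusted p = 0.0699, adjusted p = 1), a ratio of 1.36 (0.968 to 1.91). The log2 difference was 0.27 without MPE 4, and 0.16 with normexp, whose offset shrinks the differences of dim probes.

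The OAS proteins make the messenger that activates RNase L. Oas1a was among the steadiest members, at 1.46, 1.41 and 1.49 in vehicle and 1.50, 1.52, 1.48 and 1.42 in MPE. The arrays of both groups interleaved, and the ratio was 1.02 (0.934 to 1.11). Oas1a has close paralogs, so its probe may share signal with them. Oasl1 and Oasl2 differed by 0.06 and -0.01. Isg20, an exonuclease that degrades RNA, gave a log2 difference of -0.17 on its brighter probe (limma unadjusted p = 0.0956) and 0.02 on the other. Oas2 had 2 probes. The first read -2.79 on MPE 3, where it was well above background, and -6.78 to -6.23 on the 6 other arrays, while the second was above background nowhere.

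Probes that were above background on 1 array alone lay unevenly on the arrays. On the MPE arrays 86.4% to 95.4% of such probes were in rows 1 to 192 of the 384 rows of spots, and on the vehicle arrays 24.2% to 35.5%. The Oas2 probe that read above background on MPE 3 alone was in row 36 and the Ifit1 probe, so on MPE 2 alone, in row 18. A Ddx58 probe above background on MPE 2 alone was in row 164, and an Rsad2 probe, so on vehicle 1 alone, in row 283. The part of this position in their values was not tested. Examples among members above background on all 7 arrays were picked with their values in view. The Parp14 probe, uneven between MPE arrays, was in row 5 and the Irf1 probe, even between arrays, in row 1.

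Of the membrane and lipid effectors, Rsad2 (viperin), which makes a chain-terminating nucleotide, gave -1.75, -2.40 and -2.67 in vehicle and -2.39, -2.10, -2.77 and -0.75 in MPE. MPE 4 stood above all other arrays and the other MPE arrays lay within or just below the vehicle range. The ratio was 1.20 with an interval of 0.541 to 2.68. Its log2 difference of 0.27 reversed to -0.15 without MPE 4, and it was 0.53 without vehicle 1, 0.07 without vehicle 3 and 0.52 without MPE 3. A second Rsad2 probe, above background on vehicle 1 alone, differed by -0.695. MPE 4, at -4.87, did not stand apart on that probe. Bst2 (tetherin), which holds budding virions at the cell surface, gave -1.77, -2.00 and -1.99 in vehicle and -2.14, -1.87, -1.92 and -1.86 in MPE. Vehicle 1 was highest and MPE 1 lowest, and the ratio was 0.981 (0.840 to 1.15). Ifitm3, which hinders fusion of viruses with endosomes, was at background throughout, at -6.87, -6.99 and -6.09 in vehicle and -6.43, -6.44, -6.41 and -6.44 in MPE. Of the GTPases, Igtp and Irgm1 gave ratios of 1.01 (0.894 to 1.15) and 1.01 (0.887 to 1.14). Socs1, the inhibitor of the receptor kinases, gave -1.94, -2.11 and -1.89 in vehicle and -2.24, -2.06, -1.80 and -1.95 in MPE. MPE 1 was the lowest and MPE 3 the highest of the 7 arrays, and the ratio was 0.979 (0.812 to 1.18).

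Parp14, a macrodomain protein described for its spread after its values were seen, gave -1.84, -2.17 and -1.89 in vehicle and -2.09, -0.36, -1.11 and -2.09 in MPE. MPE 2 and MPE 3 stood above every other array, while MPE 1 and MPE 4 lay inside the vehicle range. The ratio was 1.47 with an interval of 0.721 to 2.99. Its log2 difference of 0.55 became 0.20 without MPE 2 and 0.78 without MPE 1 or without MPE 4, and the gene's second probe was above background nowhere. Ifi35, a partner of Nmi, gave 3.16, 3.19 and 3.16 in vehicle and 3.16, 3.17, 3.16 and 3.01 in MPE. MPE 4 alone stood below, and the ratio was 0.969 (0.881 to 1.06). The other Ifi35 probe, above background on all 7 arrays, gave the opposite direction, a log2 difference of 0.10.

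**Figure D3:**
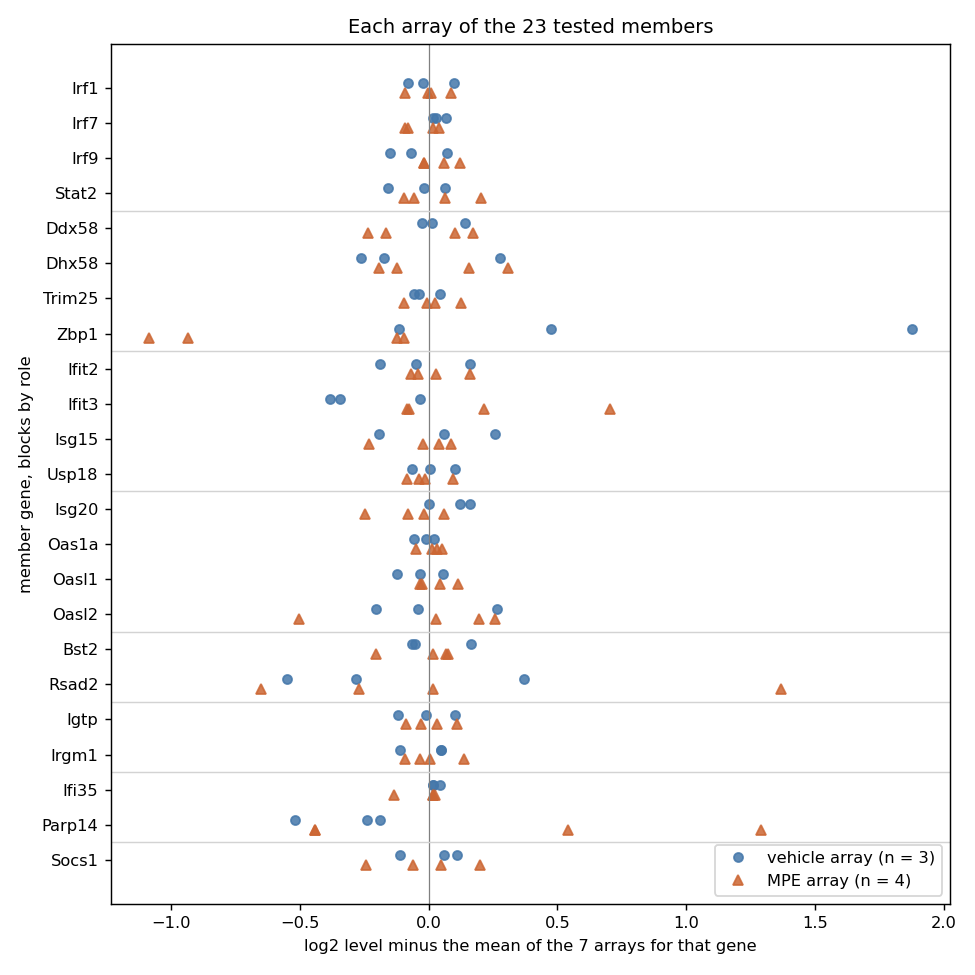
Log2 level of each of the 23 measured members on each array, minus the mean of the 7 arrays for that gene (x axis), in blocks by role. Circles are the 3 vehicle arrays and triangles the 4 MPE arrays. Vehicle 1 lies apart for Zbp1, MPE 4 for Rsad2 and Ifit3, and MPE 2 for Parp14, while most genes lie close to 0 in both groups.

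The arrays that stood apart were different ones for different genes. The median spread between arrays of 1 group (residual SD, log2) was 0.126 for the measured members and 0.123 for all genes. It was over 0.2 for 6 members, with Zbp1 at 0.764, Rsad2 at 0.743 and Parp14 at 0.660, values exceeded by few genes (they stood at the 98.4, 98.3 and 97.7 percentiles of all genes), followed by Ifit3 at 0.311, Oasl2 at 0.307 and Dhx58 at 0.259. Leaving these out, no member differed by more than 0.167 in size. Within the vehicle group, vehicle 2 was the lowest array for 12 of 23 members (52.2%) and for 28.0% of all genes. Within the MPE group, MPE 4 was the lowest for 10 members (43.5%) and for 26.5% of all genes.

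Member probes that were never above background differed between the groups in a way that all such probes did. The 22213 probes never above background had a median level of -6.86 to -6.74 on the vehicle arrays and -6.34 to -6.31 on the MPE arrays, a median difference of 0.48. The 15 member probes among them had a median difference of 0.47. Some belong to Stat2, Ddx58, Parp14, Zbp1 and Oas2, which had another probe above background on at least 1 array. For 9 of these 15 every MPE array lay above every vehicle array, as it did for 62.0% of all such probes. When no filter was applied, limma called 21.2% of 45616 genes higher and 0.763% lower, and 5 members were among the genes called higher: Irf8 (0.50), Gbp2 (0.47), Gbp3 (0.47), Gbp7 (0.52) and Ifi44 (0.48). None of these 5 was above background on any array, and each difference is close to that of the floor.

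**Figure D4:**
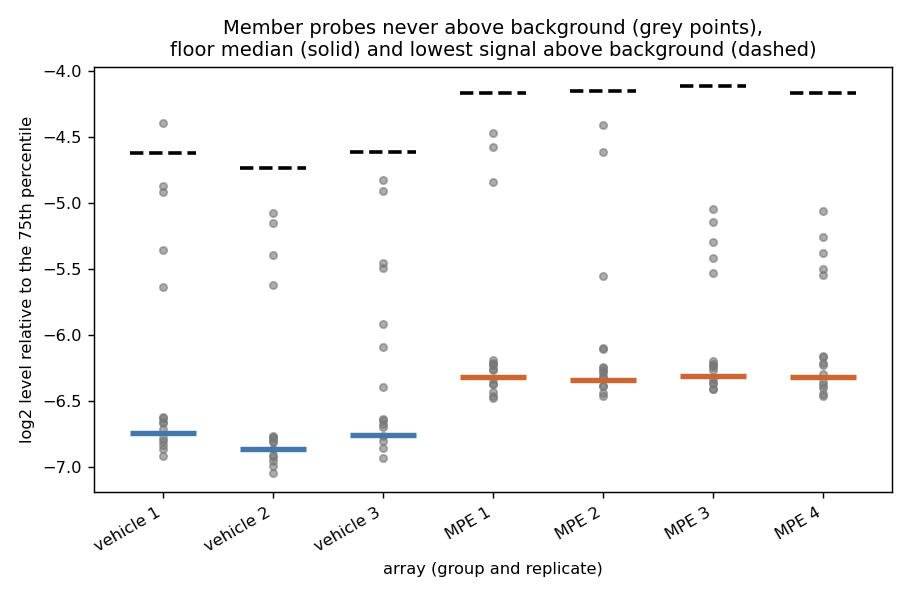
Log2 level of the 15 member probes never above background (grey points) on each array. Solid bars give the median of all 22213 such probes (blue, vehicle; orange, MPE) and dashed bars the lowest signal well above background on that array. Most grey points sit at the solid bars, which are higher on the 4 MPE arrays.

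Upstream of the members, the interferon genes themselves were mostly dim. Of 18 matched ligand genes 6 were measured, and 10, among them Ifnb1 and Ifng, were above background on no array. All 6 were above background on the 3 vehicle arrays and 4 of them on no more than 2 MPE arrays, so these 4 were tested only through vehicle and no direction is read from the list. None passed the test. Ifna9 and Ifnl3 had unadjusted limma p-values of 0.0281 and 0.0242 with differences of -0.43 and -0.60, and both were above background only on vehicle arrays. With normexp, whose offset shrinks the differences of dim probes, they were -0.14 and -0.24. The genes of the Ifna family are near copies and their probes may share signal.

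Of the receptor genes 5 of 6 were measured, 3 higher and 2 lower (0 and 5 with arrays scaled to their median), and 0 passed the test. Ifnar1 gave 2.90, 3.02 and 2.97 in vehicle and 2.62, 2.51, 2.74 and 2.82 in MPE. All 4 MPE arrays were below the lowest vehicle array. The log2 difference was -0.29 (SE 0.085, limma unadjusted p = 0.0115, adjusted p = 1), a ratio of 0.817 (0.711 to 0.940), and it was -0.285, -0.510 and -0.141 within the slide columns. The other measured Ifnar1 probes gave -0.04 and -0.25. Ifnar2, its partner chain, gave a ratio of 0.987 (0.849 to 1.15), and Ifngr1, the ligand-binding chain for interferon gamma, 1.00 (0.893 to 1.12). Ifnlr1 was above background on no array.

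Among kinases and factors outside the member set, 8 of 10 were measured, 5 higher and 3 lower, with a median of 0.02. Jak1 and Tyk2 gave ratios of 1.00 (0.885 to 1.14) and 1.08 (0.817 to 1.44). Irf3, the factor that switches on interferon transcription, gave 0.964 (0.889 to 1.04). Of 14 sensing and adaptor genes 12 were measured, 7 higher and 5 lower, and Mavs, the mitochondrial adaptor of RIG-I, gave 0.976 (0.764 to 1.25). Of 10 negative regulators 9 were measured, 5 higher and 4 lower. In none of these 3 lists did a gene pass the test or reach an unadjusted limma p under 0.05. Median scaling, which lowers all differences alike, left 2, 1 and 0 genes of these lists higher, while quantile normalization left 5, 7 and 4 higher.

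A further list held 68 interferon-stimulated genes outside the set. Of 63 matched genes 39 (61.9%) were measured and 18 (28.6%) were above background nowhere. Of the 39, 18 were higher and 21 lower (7 and 32 with arrays scaled to their median), 0 passed the test or had an unadjusted limma p under 0.05, and the median log2 difference was -0.01. For 3 of the 39 every MPE array lay above every vehicle array, and for 0 below, against 1.18% and 3.38% of all genes: Sp110 (0.11), Oas1c (0.10) and Parp10 (0.07), with unadjusted limma p-values of 0.116, 0.126 and 0.237. The other measured probes of Sp110 gave -0.06 and -0.17, and that of Oas1c gave -0.01 with overlapping groups. Eif2ak2 (PKR), the kinase that halts translation on double-stranded RNA, gave a ratio of 1.02 (0.928 to 1.12). Of 12 matched genes of MHC class I presentation 11 (91.7%) were measured, 1 higher and 10 lower, with a median of -0.03, and 0 passed the test or had an unadjusted limma p under 0.05. Quantile normalization and the authors' value table each gave 2 higher and 9 lower. Of all genes tested 42.3% were higher, and their median was -0.02. The MHC class I genes load and display peptides at the cell surface, where interferon raises them in most cells.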

How the data were processed

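From 100 ng of total RNA, Cy3-labelled cRNA was made for 1-colour Agilent mouse arrays (per the labels). The deposited files of each array give spot intensities which, per the file headers, Agilent Feature Extraction 11.5.1.1 background-subtracted (the submitters' processing notes give version 10.5.1.1). The authors' value table holds log2 values, used as an alternative. Each of its columns had a median of 4.438 and correlated with its own array at 0.9996 or more. They are not centred per gene, and they run in the same direction as the intensities. No tool for this table is named in the sources used here.

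Controls and 611 outlier spot values were left out, and 0 spots were saturated. Log2 processed intensity minus the array's 75th percentile was used. The 28938 probes that were well above background on 3 or more arrays were tested. Symbols came from a RefSeq gene table (GRCm38.p6), which 32994 probes matched, and a gene was represented by its brightest probe on average, leaving 22098 genes. MPE and vehicle were compared by lmFit and eBayes in limma 3.58.1 (R 4.3.3), fitting treatment alone. The fit was tested on simulated data. Normexp (offset 50) used median spot intensity because the files used here hold no mean spot intensity, and it was followed by quantile normalization. The lowest processed signals well above background were 12.58 to 24.37 across the arrays. An offset of 50 therefore shrinks the differences of dim probes by construction. The number of arrays limits the precision.

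The members and the lists were chosen with earlier results of these data known. Members are named by detection. Values are given for members that had an unadjusted p under 0.05, non-overlapping groups, an MPE array apart from the others or detection in 1 group only, for 18 members and 11 pathway genes fixed by name (1 of them is not reported here), and for up to 3 genes per list with an unadjusted p under 0.05 or non-overlapping groups. Any gene beyond these was picked with its values in view. Alternatives concerned scaling, filter, background, probes, variance, array weights, blocks and each array left out.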

Additional observations from a re-analysis of the deposited data

Results flagged for a closer look

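Ifi35 on MPE 4 stood at 3.01 (log2 relative to the 75th percentile), while the other 3 MPE arrays stood at 3.16 to 3.17. The gap was 0.947 of the range of the group, above Dixon's critical value at 95% for 4 samples. This was 1 of 32 groups of values checked, and chance sets apart about 1 in 20 such groups. The second Ifi35 probe had no such gap, at 0.59, 0.58, 0.46 and 0.52 on the MPE arrays.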

How the results depend on the processing

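Across 20 alternative settings, 5 members (Isg20, Ifit3, Irf7, Parp14 and Zbp1) kept their direction wherever they were fitted, and 18 changed it at least once. Zbp1 was not fitted with a filter on all arrays. Where every probe was fitted, the brightest probe stood for the gene, and the other Isg20 probe gave 0.02. No filter, a filter on all arrays, every probe fitted and a trended robust variance left the differences of the fitted members as they were. No setting with a filter called a member (lowest adjusted p 0.401 over all named genes). The count of all genes called, 1, became 9996 with no filter (5 of them members), 3 with every probe fitted or with a trended robust variance, 4 with array weights, and 0 with a filter on all arrays, normexp or the slide column as a term. Leaving out 1 array gave 0 to 4. The labels do not say that the replicate numbers pair the samples, and pairing was not tested. Same-numbered arrays correlated in their deviations at 0.25, 0.05 and 0.41. Vehicle 1 correlated at 0.25 and 0.31 with MPE 1 and 2 and at -0.33 and -0.18 with MPE 3 and 4, and vehicle 3 at -0.32, -0.31, 0.41 and 0.17 with MPE 1 to 4. The replicate block called 0 genes. Replicate 4 holds MPE 4 alone, so MPE 4 has no part in the block's differences, which equal those without MPE 4. With the block 412 genes were higher and 1491 lower at an unadjusted limma p under 0.05. Leaving out MPE 4 with no block gave 253 and 883, and the main fit of all 7 arrays gave 167 and 740. The members' median of 0.008 became -0.062 with median scaling. The log2 differences that changed sign were, with median scaling, Ifit2 -0.0207, Irf1 -0.0637, Stat2 -0.000274, Oas1a -0.046, Oasl1 -0.012, Igtp -0.0504, Irgm1 -0.062, Trim25 -0.0441, Ifngr1 -0.0673, Jak1 -0.0634, Eif2ak2 -0.0396 and Parp10 -0.00408. With the mean of a gene's probes they were Irf1 -0.000234, Irf9 -0.00721, Irgm1 -0.0101, Ifi35 0.0271, Ifnar2 0.03 and Sp110 -0.0418. With the slide column, in which MPE 3 has no part, they were Irf1 -0.0241, Oasl2 0.151, Irgm1 -0.0376, Ifnar2 0.0385 and Mavs 0.0267. With normexp they were Oas1a -0.0107, Oasl2 0.016 and Igtp -0.0237. With array weights they were Oasl2 0.109, Ddx58 0.00447, Irgm1 -0.0295 and Ifnar2 0.016. With the replicate block, as with MPE 4 left out, they were Rsad2 -0.15, Usp18 0.000604, Igtp -0.0157 and Mavs 0.0252. With the authors' value table Dhx58 became -0.00284. Leaving out 1 array changed the sign of some values, whose ranges were Isg15 -0.19 to 0.0362, Ifit2 -0.0311 to 0.141, Irf1 -0.035 to 0.0582, Oasl2 -0.119 to 0.151, Rsad2 -0.15 to 0.528, Dhx58 -0.0161 to 0.253, Usp18 -0.0655 to 0.0218, Bst2 -0.0673 to 0.0457, Igtp -0.0365 to 0.0759, Irgm1 -0.0463 to 0.0394, Trim25 -0.0122 to 0.0618, Socs1 -0.102 to 0.0447, Ifnar2 -0.0705 to 0.0448, Ifngr1 -0.0371 to 0.0362, Jak1 -0.0385 to 0.0372, Mavs -0.155 to 0.0359 and Eif2ak2 -0.0119 to 0.0572. The causes were not tested. Counting members above background on all 7 arrays gave 22, on at least 1 array 25, and by the positive and significant flag 27. Without Zbp1, Rsad2 and Parp14, a setting chosen after seeing the data, the members' median was 0.007. Probes near the floor, such as those of Zbp1, Dhx58 and Ifit3, have the least signal over background.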
